A study of Brassica rapa with 28 samples.

Results

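Wild-type leaves of Brassica rapa that had spent 3 days in darkness and then 1 day back in light were compared with leaves of the same plants before darkness. The comparison used the 4 recovery and the 4 pre libraries of the wild-type line R-o-18, which were 8 of the 28 libraries in the series. They were taken by their labels and paired by replicate number, 3 to 6. Each replicate, called a plant pool here, combined leaf punches of 28 mm2 from 3 plants. Plants were 3 weeks old at the start, were kept on a cycle of 16 h light and 8 h night, and were sampled 5 h after lights on. The pre library came from an uncovered leaf at 0 h and the 24hr library from that leaf at 24 h. A second, developmentally matched leaf was wrapped in foil at 0 h, gave the dark library on unwrapping at 72 h, and gave the recovery library at 96 h. The 3 pools of the BrphyB-3 mutant, which carries a mutation in a gene for phytochrome B in the same R-o-18 strain, went through the same 4 stages. Recovery and pre therefore differ in leaf, in plant age by 96 h and in dark history, and these cannot be told apart. The recovery leaf had also been punched 24 h earlier, as had the 24hr leaf, while no earlier punch is described for the pre leaf.

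Darkness stops photosynthesis and removes the active form of phytochromes, red-light photoreceptors that move between 2 states on absorbing light. In Arabidopsis, a relative of Brassica, a leaf darkened on an otherwise lit plant draws on stored carbon, shifts away from expression of photosynthesis genes and begins senescence. The early part of this course can be reversed by light. The comparison of recovery with pre asks which transcripts had not come back to their starting level after 1 day of light.

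The gene IDs of the deposited table were not paired with names, so genes are described as groups and 4 are given by ID. For that reason the leaf label was not checked against marker genes, and no protein or promoter sequence is shown. Total counts were 10103310 to 11823746 in the recovery libraries and 5221760 to 11884955 in the pre libraries, with the lowest in pool 3. Of 48826 gene IDs, 24992 had enough counts to be tested. Levels are in CPM, the usual counts-per-library-size unit, after scaling of the library totals, and changes are in log2 units. The libraries measure RNA in bulk tissue, so fewer cells of a type and less RNA per cell cannot be told apart.

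After 1 day of light, 1716 of 24992 genes differed from pre, which is 6.87% of those tested. Of these, 1044 genes (4.18%) were higher at recovery and 672 (2.69%) were lower. The median log2 change of the genes that rose was 1.46, with an interquartile range of 0.95 to 2.30, and that of the genes that fell was -1.12, with a range of -1.79 to -0.79. The median over all tested genes was 0.00. For scale, 7517 genes (30.1%) were higher and 7871 (31.5%) were lower at dark than at pre. Calls were made with edgeR's quasi-likelihood test with the plant pool as a block, at a Benjamini-Hochberg adjusted p under 0.05. The count was sensitive to the pools, with 870 genes without pool 3, 718 without pool 4, 802 without pool 5 and 659 without pool 6. Without the block, 1107 genes passed, and a fit to the 8 recovery and pre libraries alone called 877. The count also depends on which form of the quasi-likelihood estimate is used. The form used here was chosen after the counts of 4 forms had been seen, and the default form of the software version used, run first, called 1388 genes.

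The calls covered a wide range of sizes. A log2 change of at least 1 was seen in 752 genes that rose and in 395 that fell, and a change of at least 3 in 160 that rose and 47 that fell. By comparison, 1128 genes rose and 1872 fell by at least 3 at dark against pre. Changes under 0.5 made up 23 of the calls that rose and 24 of those that fell. Rises of at least 3 thus outnumbered falls of that size at recovery, whereas such falls outnumbered such rises at dark.

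Genes were then divided by the direction of their dark change. Of the 7517 genes raised in darkness, 491 (6.53%) were still higher at recovery and 87 (1.16%) were below pre. Of the 7871 genes lowered in darkness, 420 (5.34%) were still lower and 277 (3.52%) were above pre. Over all tested genes, 4.18% were higher and 2.69% lower, so the shares still higher and still lower lay above those of all tested genes, and the share of dark-lowered genes above pre lay under its own. These shares are descriptions with no test. Among the 9604 genes with no dark call, 276 (2.87%) were higher and 165 (1.72%) were lower. Genes raised in darkness made up 47.0% of all that were higher at recovery, and genes lowered in darkness made up 62.5% of all that were lower. Without 1 pool, the 491 genes became 154 (pool 6) to 284 (pool 5), the 420 became 159 (pool 5) to 221 (pool 3), the 87 became 24 (pool 5) to 44 (pool 4) and the 277 became 101 (pool 5) to 155 (pool 4). Without the block, the 4 counts were 307, 272, 56 and 164 in the order of the text, from the genes still higher to the dark-lowered genes above pre. In the fit to the 8 recovery and pre libraries they were 206, 230, 42 and 189, so fewer genes were still higher than still lower there. The same order was seen without pool 6 (154 against 180) and with 24hr as the start (353 against 386).

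Dark against pre and recovery against pre share the 4 pre libraries, so a pre value that is low by error raises both changes. The division was therefore repeated with the dark change measured in other libraries. Dark against 24hr still uses the same leaves, since 24hr came from the pre leaf and dark from the recovery leaf. A difference between these leaves of a pool would enter both changes, and this was not tested. With dark against 24hr, 7549 genes (30.2%) were raised, of which 444 (5.88%) were higher and 103 (1.36%) lower at recovery than at pre. In that division 8067 genes (32.3%) were lowered, of which 376 (4.66%) were lower and 327 (4.05%) higher at recovery. With dark against pre in the BrphyB-3 mutant, which shares no plant with the wild type, 6996 genes (28%) were raised, of which 355 (5.07%) were higher and 129 (1.84%) lower in the recovered wild type. In the 7564 genes (30.3%) lowered in the mutant at dark, 307 (4.06%) were lower and 326 (4.31%) higher in the recovered wild type. With all 3 measures of the dark change, the share higher among dark-raised genes was above the 4.18% of all tested genes, and the share lower among dark-lowered genes was above the 2.69%. Both shares were smaller with dark against 24hr, and smaller again with the mutant, than with dark against pre. In number, dark-lowered genes that were lower exceeded those that were higher with both wild-type measures and not with the mutant. The share higher among dark-lowered genes lay under 4.18% with both wild-type measures and above it with the mutant (4.31%).

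The share of genes higher at recovery grew with the size of the dark rise. It was 2.57% among genes within 0.5 log2 units of no dark change, measured as dark against 24hr. It was 4.55% among genes raised by 1 to 2, 8.35% among those raised by 2 to 3 and 14.5% among those raised by more than 3. In these 3 groups the share lower at recovery stayed between 1.22% and 1.30%. Genes raised by more than 3 had a median of 0.41 CPM at pre and 11.2 CPM at dark, so a fall was hard to call in many. Among genes at or above the median level over all 28 libraries, the shares lower in the 3 groups were 1.74%, 2.63% and 3.05%. Genes lowered by 3 or more showed 5.65% lower and 4.97% higher at recovery, so both directions were more frequent there than among genes with little dark change. The plot of calls by size of the dark change shows these shares, and its raised and lowered sides are not compared because their starting levels differed.

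**Figure D1:**
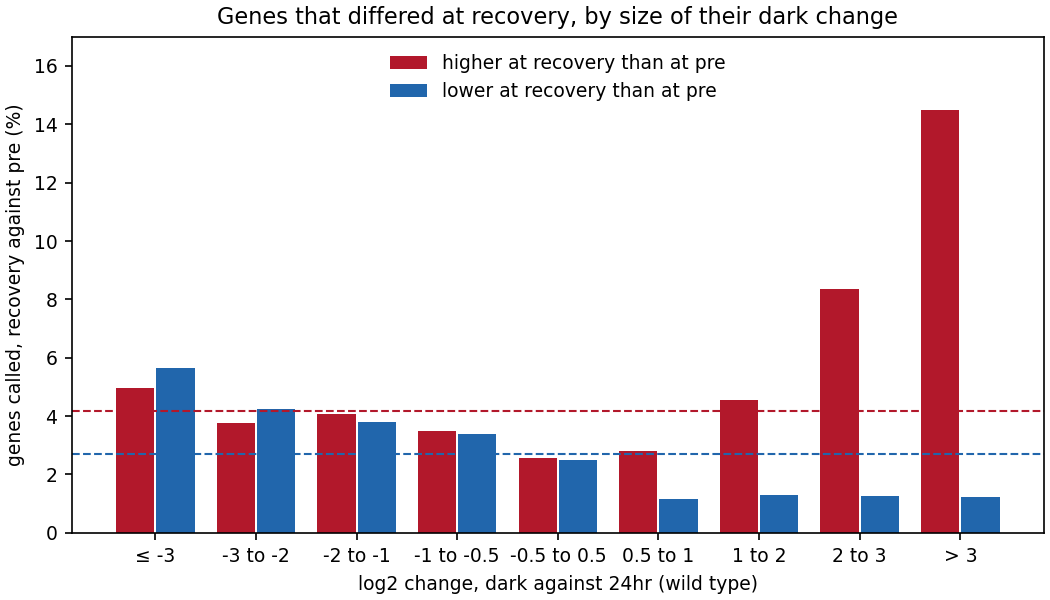
Share of genes called higher (red) or lower (blue) at recovery than at pre in the wild type (y axis, percent) in 9 groups by their log2 change of dark against 24hr (x axis), with the shares over all tested genes, 4.18% and 2.69%, as dashed lines. The share called higher reaches 14.5% in genes raised by more than 3, where 1.22% were called lower. Those genes had a median of 0.41 CPM at pre, from where a fall is hard to call. Among genes lowered by 3 or more the shares are 4.97% and 5.65%, and the raised and lowered sides are not compared.

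Among the more abundant genes, those at or above the median level over all 28 libraries, 328 had a dark rise of more than 3 against 24hr. That level includes the dark libraries, where these genes were high, so many entered through dark, whereas strongly lowered genes entered through the lit stages, and the values of the 2 sides are not compared. In the pools, their median log2 CPM at recovery minus pre was 0.59 in pool 3, 1.37 in pool 4, 0.10 in pool 5 and 0.56 in pool 6. The median was positive in every pool, and pool 4 was far above pool 5. In the 850 abundant genes that darkness lowered by 3 or more, the medians were 0.01, -0.10, 0.06 and 0.02 in pools 3 to 6. These lay on both sides of 0. The median level of the 328 genes was 12.04 CPM at recovery and 6.17 CPM at pre, against 106 CPM at dark. In the 850 strongly lowered genes it was 75.3 CPM at recovery and 69.9 CPM at pre, against 4.17 CPM at dark.

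**Figure D2:**
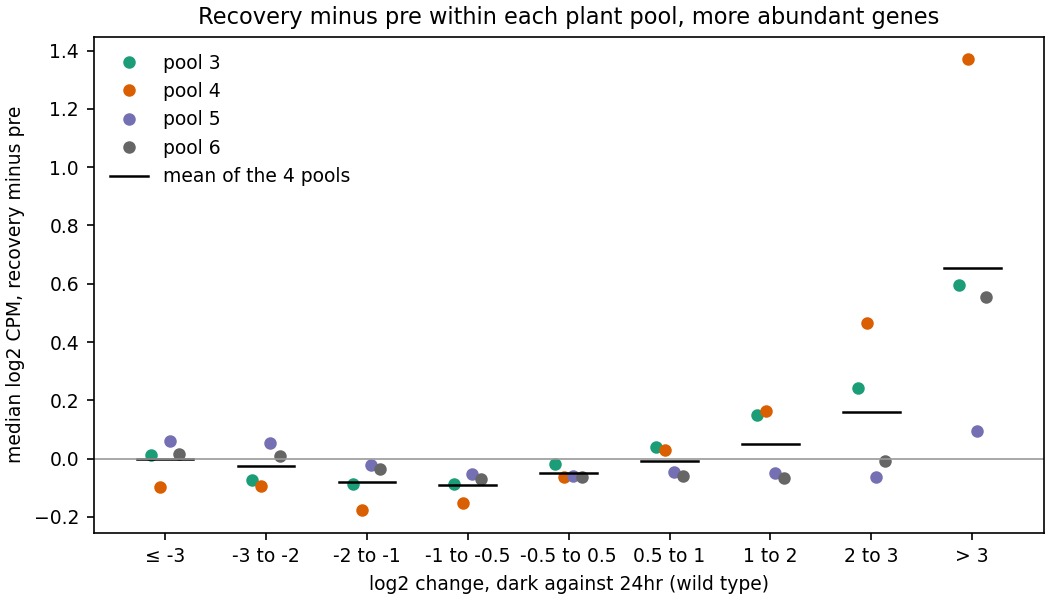
Median log2 CPM at recovery minus pre (y axis) in each of the 4 wild-type pools (coloured points) for genes at or above the median level, in 9 groups by their log2 change of dark against 24hr (x axis). Black lines mark the mean of the 4 pools. The pools spread from 0.10 to 1.37 in genes raised by more than 3, and lie between -0.10 and 0.06 in genes lowered by 3 or more.

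The part of the dark change still present at recovery was also taken gene by gene within each pool, as recovery minus pre divided by dark minus pre in log2 CPM. In the 5039 genes raised in darkness by at least 1, the median share left was 18.0% in pool 3, 23.4% in pool 4, 5.00% in pool 5 and 8.00% in pool 6. In the 6198 genes lowered by at least 1, it was 10.5% in pool 3, 14.2% in pool 4, -0.23% in pool 5 and 0.26% in pool 6. Pools 3 and 4 were above pools 5 and 6 in both groups. The lowest totals among these libraries were 5221760 counts at pre in pool 3 and 4928822 at dark in pool 4, and their effect was not tested. The share left was larger for raised than for lowered genes in each of the 4 pools. Starting levels differed, with a median at pre of 0.31 CPM in genes raised by 3 or more and 10.2 CPM in genes lowered by 3 or more. The larger share is thus not read as a difference between the sides. The means were 13.6% ± 8.57 (SD, n = 4) for raised genes and 6.19% ± 7.29 (SD, n = 4) for lowered genes. With 24hr in place of pre as the start, the means were 10.3% ± 4.87 and 3.71% ± 7.20 (SD, n = 4 each). Over genes chosen by the mutant's dark change, the means were 7.73% ± 8.72 for raised and 4.51% ± 7.001 for lowered genes (SD, n = 4 each). These are descriptions with no test, since numerator and denominator share a library.

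**Figure D3:**
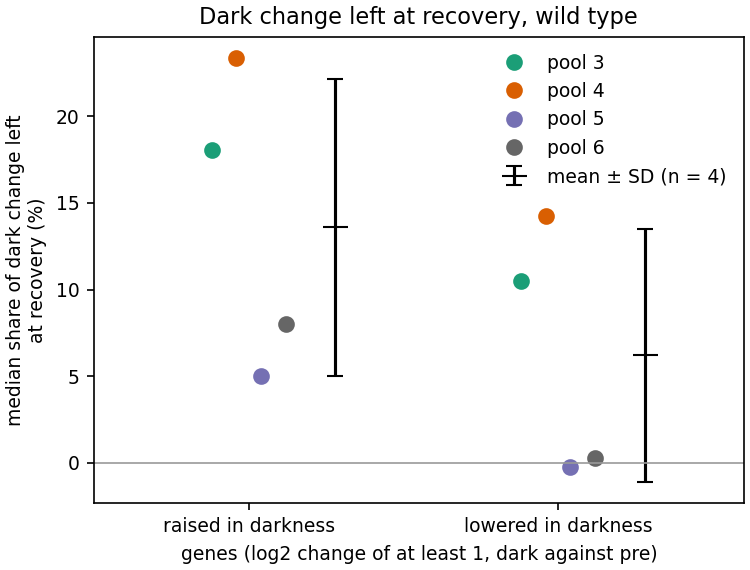
Median share of the log2 dark change left at recovery (y axis, percent) in each wild-type pool (coloured points), with the mean and SD of the 4 pools in black, for genes raised and genes lowered by at least 1 at dark against pre (x axis). Pools 3 and 4 lie at 18.0% and 23.4% for raised genes, and pools 5 and 6 lie near 0 for lowered genes.

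A gene that was not called had not thereby returned, so the 95% interval of its change was compared with a 2-fold difference. Of all tested genes, 12301 (49.2%) had an interval inside 2-fold of pre in both directions. Among genes raised in darkness by at least 1, this was so for 1897 of 5039 (37.6%), while 476 were called and 2679 were neither called nor inside 2-fold. Among genes lowered by at least 1, it was so for 2506 of 6198 (40.4%), with 549 called and 3199 neither. Of the 1128 genes raised by at least 3, only 24 (2.13%) were inside 2-fold, 209 were called and 895 were neither. Of the 1872 genes lowered by at least 3, 423 (22.6%) were inside 2-fold and 189 were called. The median half-width of the interval was 1.95 log2 units in the strongly raised genes and 0.88 in the strongly lowered genes, against 0.63 over all tested genes. For most strongly raised genes, these intervals show neither a return to within 2-fold nor a lasting difference. They hold both counting error and the spread between pools, which were not separated. Of the 1716 called genes, 199 had an interval inside 2-fold, so their change passed the test and was small.

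The 6 classes of called genes were at different levels. The 491 genes still higher after a dark rise had a median level of 13.1 CPM at recovery and 3.89 CPM at pre, with 25.6 CPM at dark. The 420 genes still lower after a dark fall had 12.5 CPM at recovery and 27.3 CPM at pre, with 7.21 CPM at dark. The median level of both classes at recovery thus lay between those at dark and at pre. This holds for the medians and not for every gene, since some genes of each class had a larger fitted change at recovery than at dark.

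The 277 genes above pre after a dark fall had a median of 49.4 CPM at recovery and 21.4 CPM at pre, with 5.89 CPM at dark. The 87 genes below pre after a dark rise had 14.5 CPM at recovery and 36.3 CPM at pre, with 101 CPM at dark. These 2 classes had passed their starting level in the direction opposite to the dark change. Of the genes with no dark call, the 276 that were higher had 13.5 CPM at recovery, 4.14 CPM at pre and 4.66 CPM at dark, and the 165 that were lower had 14.7, 26.7 and 24.6 CPM at those stages.

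All 6 classes were chosen on recovery against pre, so their changes in it are a description. Set beside these are their medians for 24hr against pre, which share the pre libraries. For the genes still higher after a dark rise, the median log2 change was 1.65 at recovery and 0.34 at 24hr. For the genes still lower after a dark fall it was -1.18 and -0.14, for dark-lowered genes above pre it was 1.15 and 0.11, and for dark-raised genes below pre it was -1.04 and -0.19. In each of these 4 classes the 24hr median had the same sign and a smaller size. Error in the shared pre libraries would push it the same way, so it does not show that the 24hr leaf had moved. By edgeR's quasi-likelihood test, 0 genes were called for 24hr against pre, and 892 had an unadjusted p under 0.05.

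The called genes held a modest part of each library. Genes higher at recovery took 5.33% ± 0.152 of the counts at recovery and 2.36% ± 0.219 at pre (SD, n = 4 each), and 5.20% ± 0.595 at dark. Genes lower at recovery took 2.70% ± 0.282 at recovery and 5.69% ± 0.479 at pre (SD, n = 4 each), and 5.01% ± 0.373 at dark. The recovery and pre libraries did not overlap in either share. Both sets were chosen on recovery against pre in these libraries, so a gap between those stages is built in and is a description. The class with the most counts at pre was the 420 genes still lower after a dark fall, with 1.92% ± 0.205 at recovery and 4.03% ± 0.324 at pre (SD, n = 4 each). The 277 dark-lowered genes above pre took 2.78% ± 0.280 at recovery and 1.33% ± 0.103 at pre (SD, n = 4 each), the most of the 6 classes at recovery.

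**Figure D4:**
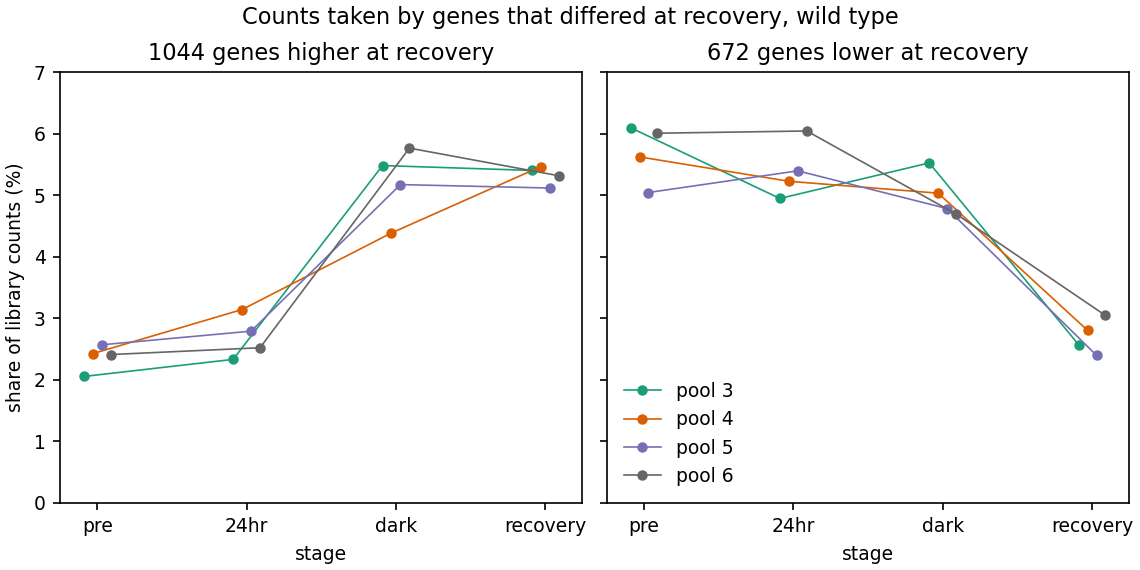
Share of library counts (y axis, percent) taken by the genes called higher (left) and lower (right) at recovery than at pre, in each wild-type library by stage (x axis). Coloured lines join the stages of a pool, with 1 leaf sampled at pre and 24hr and the wrapped leaf at dark and recovery. The mean for genes higher at recovery is 5.33% at recovery and 2.36% at pre, and that for genes lower at recovery is 2.70% at recovery and 5.69% at pre.

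Within pools, 1623 of the 1716 called genes (94.6%) had the same direction of change in all 4. The genes were called on these same pool pairs, so agreement is built in, and the share over all tested genes is not given. The counts of called genes without overlap and the class medians below are descriptions for the same reason. The recovery and pre libraries did not overlap in 815 of the 1044 genes that rose and in 522 of the 672 that fell. Over all tested genes, 1869 (7.48%) had all recovery libraries above all pre libraries and 1365 (5.46%) had them all below. Of the 1716 genes, 302 were called in each of the 4 fits that left out a pool, 196 of them higher and 106 lower, while 438 were called in none of those fits. In the class still higher after a dark rise, the median log2 change was 1.48, 1.66, 1.05 and 1.39 in pools 3 to 6. In the class still lower after a dark fall it was -1.21, -1.20, -1.02 and -1.02.

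The named genes had the largest change of their kind among called genes with non-overlapping libraries and a mean of at least 10 CPM in the higher group and 1 CPM in the lower. This left 225, 214, 260 and 53 genes to choose from for the 4 kinds, in the order given here. The rule itself required that recovery and pre libraries did not overlap. That separation and the same direction in 4 of 4 pools are therefore built in for all named genes and are descriptions. BraA05000234, still higher after a dark rise, had 2.78, 81.5, 9.44 and 7.52 CPM at recovery in pools 3 to 6, against 0.817, 1.11, 1.71 and 1.58 CPM at pre. Pool 4 was far above the other recovery libraries, and the lowest recovery value was above the highest at pre. At dark it had 30.3 to 37.6 CPM, and it stood above that range at recovery in pool 4 alone. Its log2 change at recovery was 3.66 (SE 0.77, edgeR quasi-likelihood, adjusted p 0.0082), higher in 4 of 4 pools. Without pool 4 the change was 2.20 with an adjusted p of 0.0679 in the same edgeR test, so the call was lost. With the default form of the estimate the rule would have named another ID of this kind, and BraA05000234 still passed (log2 change 3.57, edgeR quasi-likelihood, adjusted p 0.0112).

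BraA08001190, above pre after a dark fall, had 52.6, 30.4, 124 and 9.39 CPM at recovery in pools 3 to 6, against 1.02, 3.42, 3.30 and 2.19 CPM at pre. The recovery libraries were all above the pre libraries but differed widely among themselves. It had 0 counts in all 4 dark libraries, where 3 counts, the limit that a count of 0 allows, would be 0.249 to 0.609 CPM. At 24hr it had 4.58, 20.5, 17.05 and 1.39 CPM, which overlapped both groups. The log2 change at recovery was 4.16 (SE 0.64, edgeR quasi-likelihood, adjusted p 0.00253), and with 24hr as the start it was 2.36 (adjusted p 0.0224 in the same edgeR test).

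BraA08001647, still lower after a dark fall, had 0.720, 1.72, 2.23 and 1.25 CPM at recovery in pools 3 to 6, against 23.5, 19.5, 19.7 and 20.6 CPM at pre. The groups were far apart and the pre libraries were close together. The dark libraries held 0 to 3 counts each, so recovery lay slightly above a level near 0. The log2 change at recovery was -3.84 (SE 0.44, edgeR quasi-likelihood, adjusted p 9.61e-05), lower in 4 of 4 pools. Over the alternatives it ranged from -4.07 to -3.56 and passed in each.

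BraA01000296, below pre after a dark rise, had 1.95, 2.95, 11.7 and 3.40 CPM at recovery in pools 3 to 6, against 74.5, 19.6, 87.4 and 392 CPM at pre. At dark it had 3361, 336, 858 and 1157 CPM in the same pools, so each pool passed from its highest to its lowest level within 24 h. The log2 change at recovery was -4.19 (SE 0.87, edgeR quasi-likelihood, adjusted p 0.00773), lower in 4 of 4 pools. At 24hr it had 8.95, 15.9, 13.5 and 78.8 CPM, and with 24hr as the start the change was -2.20, which did not pass (adjusted p 0.134 in the same edgeR test).

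**Figure D5:**
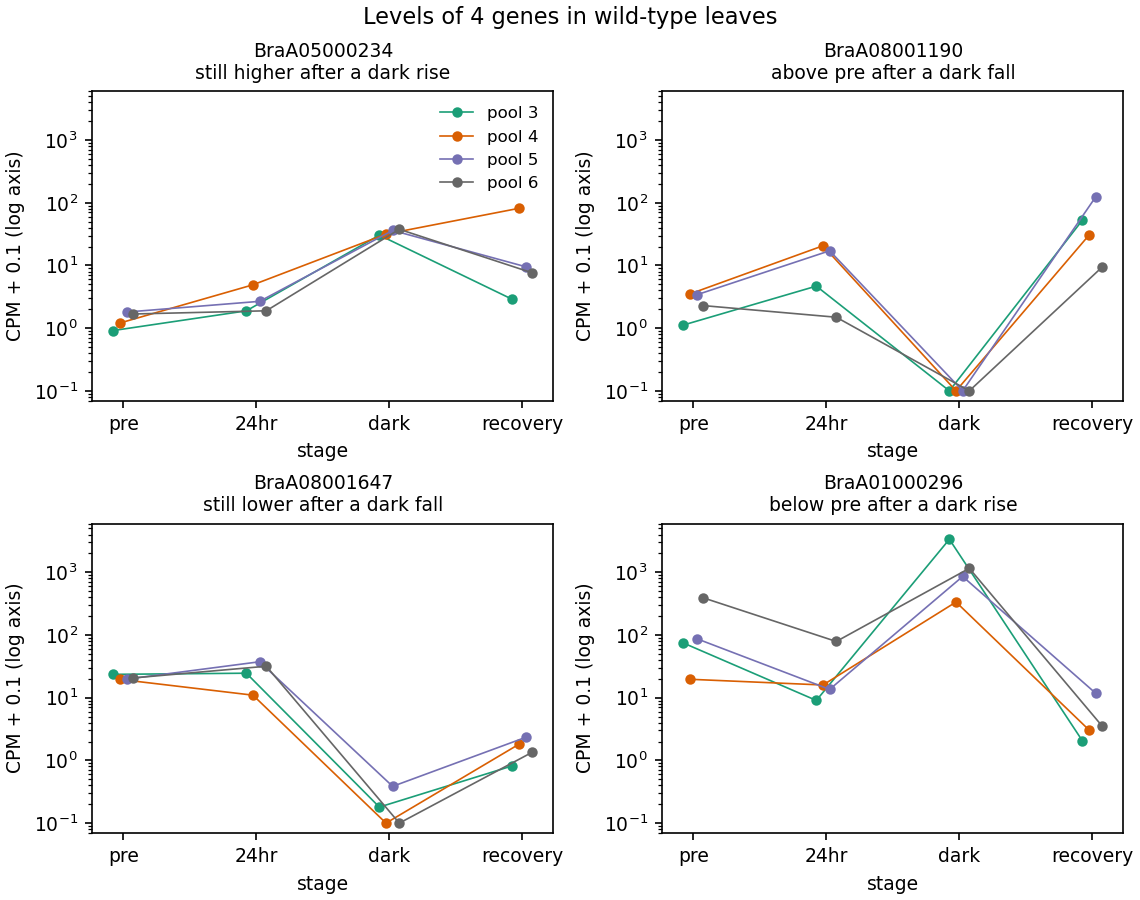
CPM plus 0.1 on a log axis (y axis) for 4 genes in each wild-type library by stage (x axis), with coloured lines joining the stages of a pool across the uncovered leaf (pre, 24hr) and the covered leaf (dark, recovery). BraA08001647 lies between 0.720 and 2.23 CPM at recovery, against 19.5 to 23.5 CPM at pre, and BraA01000296 between 1.95 and 11.7 CPM at recovery, against 19.6 to 392 CPM at pre.

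The mutant gave the same comparison in separate plants. There 434 genes (1.74%) were higher and 411 (1.64%) lower at recovery than at pre, in 3 pools. Of the 1716 genes called in the wild type, 446 (26.0%) were called in the mutant in the same direction and 0 in the opposite one. The direction of the mutant's fitted change was the same for 1624 of the 1716 (94.6%), against 67.3% over all tested genes. Its median log2 change was 0.99 in the 491 genes still higher after a dark rise and -0.87 in the 420 still lower after a dark fall. It was 0.82 in the 277 dark-lowered genes above pre and -0.64 in the 87 dark-raised genes below pre.

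The wild-type genes most often called in the mutant too were the 276 without a dark call that were higher, with 90 (32.6%), and the 277 dark-lowered genes above pre, with 89 (32.1%). Of the 491 still higher after a dark rise, 100 (20.4%) were called in the mutant, and of the 420 still lower after a dark fall, 124 (29.5%). Of the 87 dark-raised genes below pre it was 16 (18.4%), and of the 165 without a dark call that were lower, 27 (16.4%). The classes differed in level and calls were more frequent in abundant genes, so these shares are descriptions. A test of the difference between genotypes called 0 genes by edgeR's quasi-likelihood method, and 1442 had an unadjusted p under 0.05. The smaller number of calls in the mutant, which has 1 pool fewer, is not shown to be a difference between genotypes, nor is its absence shown. For the 4 named genes, the mutant means were 16.7 ± 14.8 CPM at recovery and 3.92 ± 0.476 CPM at pre for BraA05000234, and 43.9 ± 32.1 and 1.33 ± 0.940 CPM for BraA08001190 (SD, n = 3 each). They were 4.91 ± 6.43 CPM at recovery and 28.6 ± 31.6 CPM at pre for BraA08001647, and 3.66 ± 2.38 and 23.9 ± 24.6 CPM for BraA01000296 (SD, n = 3 each). BraA08001190 and BraA08001647 passed in the mutant too (adjusted p 0.00316 and 0.00184, edgeR quasi-likelihood), and the other two did not (0.171 and 0.177).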

How the data were processed

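The authors deposited raw counts per gene ID and library, as whole numbers that were not normalized. The submitters' processing notes name bcl2fastq 2.17.1.14, Trimmomatic 0.36, Bowtie2 and HTSeq. The genome build, annotation and strand setting are not given in the sources used here, so values of genes with close copies, or that overlap others on either strand, are uncertain. RefSeq identifiers matched 0 of the IDs, so planned gene lists were not used, and 0 columns lacked a sample. IDs with low counts were removed with filterByExpr of edgeR 4.0.16 in R 4.3.3, and 24992 remained with 99.9% of the counts.

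Libraries were scaled by TMM. All 28 were fitted with edgeR's quasi-likelihood method, with the plant pool as a block and stage effects for each genotype. The common biological coefficient of variation was 0.318. The SE is the absolute log2 change divided by the square root of F, and the 95% interval uses it. Log2 CPM values used a prior count of 2. These intervals include the spread between pools, while the limit of 3 counts covers counting error only. The fitting steps were also run on data simulated from the main fit.

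Replicate numbers pair the libraries because, per the labels' protocols, both leaves of a replicate came from the same plants. Deviations of the recovery and pre libraries from their group means correlated with r of -0.0143 to 0.0731 across genes for the same number and -0.264 to 0.313 for different numbers. No 2 replicates differed as little as counting noise. Alternatives were no block, RLE scaling, no filter, fewer libraries, DESeq2 1.42.0, leaving out each pool and 24hr as the start. The quasi-likelihood form was not fixed in the design. The default of this edgeR version (legacy) was run first and called 1388 genes. The legacy and newer forms, each with and without robust estimation, were then compared and called 1388, 1378, 1716 and 1682 genes with the block. The newer form without robust estimation was made the main fit after these counts were seen, because its count was that of an earlier analysis of these data. It gave the most calls of the 4. Members and lists were chosen with earlier results of these data known.

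The named genes were, by rule, the largest rise and fall among dark-raised and dark-lowered genes that were called, had a mean of at least 10 CPM in one group and 1 CPM in the other, and did not overlap between groups.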

Additional observations from a re-analysis of the deposited data

Results flagged for a closer look

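Sets of 4 wild-type libraries were examined for a value far from the other 3. Of 32 sets, 4 held such a value. The cut-off is meant to flag about 1 in 20 sets of independent, normally spread values. These sets share genes and libraries, most hold CPM of genes chosen for large changes, and 1 set held only 0 counts and could not be flagged. The count of 4 is therefore not set against a chance rate. For BraA05000234 the recovery library of pool 4 had 81.5 CPM, against 2.78 to 9.44 CPM in the other pools. For BraA01000296 the recovery library of pool 5 had 11.7 CPM, against 1.95 to 3.40 CPM in the others. For the same gene the 24hr library of pool 6 had 78.8 CPM, against 8.95 to 15.9 CPM. The median log2 change of the 277 dark-lowered genes above pre was 1.37 in pool 3, against 0.94 to 1.00 in the other pools.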

How the results depend on the processing

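No gene called in the main fit was called in the opposite direction under an alternative fit, and no named gene's change reversed. The order of class counts did change. Dark-raised genes still higher (491) outnumbered dark-lowered genes still lower (420). They did not with the 8 pre and recovery libraries, without pool 6 (154 and 180) or with 24hr as the start (353 and 386). Dark-lowered genes still lower outnumbered those above pre (277), but not with the mutant's dark change (307 and 326). Without a replicate block, 1107 genes passed (674 higher, 433 lower), with 307 dark-raised genes still higher, 272 dark-lowered still lower, 56 dark-raised below pre and 164 dark-lowered above pre. With only the 8 pre and recovery libraries these were 877 (510 and 367), 206, 230, 42 and 189, with 667 genes at a log2 change of at least 1. DESeq2 gave 765 dark-raised genes still higher, 149 dark-raised below pre and 431 dark-lowered above pre, among 2529 calls. With 24hr as the start, 49 dark-raised genes were below it, and 965 of the 1716 genes were among the 1441 calls in the same direction. What moved these counts was not tested.

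Leaving out 1 pool gave 659 (pool 6) to 870 (pool 3) genes called, 385 to 557 higher, 245 to 332 lower and 539 to 704 with a log2 change of at least 1. It gave 154 to 284 dark-raised genes still higher, 159 to 221 dark-lowered still lower, 24 to 44 dark-raised below pre and 101 to 155 dark-lowered above pre. RLE scaling, no filter and only the wild-type libraries kept the number of genes called within 1.5 times (1740, 1401 and 1309). So did the other forms of edgeR's estimate, compared after the data were seen and before the reported form was chosen, with 1682 (robust), 1388 (legacy, the default) and 1378 (legacy and robust). Without the block these 3 forms called 1093, 905 and 879. The default form gave 409 dark-raised genes still higher and 336 dark-lowered still lower, and under both legacy forms with the block the rule named another ID than BraA05000234. The share of the dark change left stayed within the spread between pools under every alternative, from 7.73% to 20.3% for raised and from 3.29% to 8.71% for lowered genes. The parts of depth and of the spread between pools in the width of the intervals were not separated.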

Other observations

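Calls were more frequent in abundant genes. Tested genes were ranked by level in 4 groups of 6248. In the group with the highest mean level over the 28 libraries, 9.46% were called at recovery against pre, with a median absolute log2 change of 0.94 among the called. In the lowest group, under 2.82 CPM, 4.15% were called, with a median of 2.68. In the highest group 72.6% of genes had an interval inside 2-fold of pre, and in the lowest 7.39%.

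The called genes were spread over all series of gene IDs. The share called ran from 6.55% in the A02 series to 7.16% in the A05 series, and 17 of 234 genes on unplaced scaffolds (7.26%) were called.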
